A study of Mus musculus with 9 samples.

Results

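Brain tissue from the site of a traumatic brain injury (TBI) was compared with tissue from the same site of sham-operated mice. The comparison uses 6 of the 9 libraries of the series, 3 labelled TBI and 3 labelled Sham. Genes were included when their FPKM (fragments scaled to transcript length and to the mapped fragments of the library) was 0.5 or more in at least 3 of these 6 libraries, which kept 13973 of 22482 genes. Of the others, 4379 were at 0 in all 6 libraries. The gene just inside the limit was Sprr1a, whose value in the third-highest library was 0.50023 FPKM, and the gene just outside it was Tekt4, at 0.49963 FPKM.

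The TBI mice were injured by a falling weight, and no treatment is named for them. In Sham mice the skull was drilled through and the dura, the outer membrane of the brain, was opened, but the brain itself was not injured. The sources used here give no strain, sex or age, and not the time between injury and sampling. Nothing in the labels ties each library to an animal of its own, so a p-value here speaks only of how these samples vary, and that variation may be technical. The remaining 3 libraries, from injured mice given C-β-LG/DSF by tail vein, were not used here except where the fit of all 3 groups is named.

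A blow to the brain kills neurons and tears vessels. The resident macrophages of the brain, the microglia, and macrophages that come in from the blood then take up debris and blood, digest it in lysosomes and release inflammatory signals. Astrocytes, the star-shaped support cells, enlarge and build a border around the damaged area, precursors of oligodendrocytes (the cells that wrap axons in myelin) divide, and cells of the vessel wall and meninges lay down collagen. In bulk tissue, fewer cells of a type and less RNA per cell cannot be told apart, and this holds for every result given here.

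FPKM totals were 424592 to 427423 in TBI and 431695 to 445404 in Sham. Read counts are not given, so the depth is unknown. Between 13095 and 13312 genes reached 1 FPKM in the TBI libraries and between 12566 and 12666 in the Sham libraries. TBI libraries differed more among themselves: the median standard deviation of log2 values was 0.211 in TBI and 0.117 in Sham, and it was larger in TBI for 10412 of the 13973 genes. TBI 1 lay highest for most glial and inflammatory lists. TBI 3 stood apart by region: the summed FPKM of 4 thalamic markers was 20.98, 23.9 and 119 in TBI 1, 2 and 3 and 17.2, 19.3 and 17.6 in Sham 1, 2 and 3, and that of 5 oligodendrocyte markers was 2646, 2697 and 8633 in TBI and 2474, 1545 and 2935 in Sham. The defining markers of neurons, astrocytes, oligodendrocytes and microglia were present in all 6 libraries, as the label of brain tissue requires. The 5 markers of T and B cells summed to at most 0.706 FPKM in TBI and 0.292 in Sham, and the 5 neutrophil markers to 4.87, 3.996 and 2.43 FPKM in TBI and 1.53, 1.22 and 0.933 FPKM in Sham.

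Values were compared as log2(FPKM + 0.5), which understates the differences of low genes, and a gene is said to have been called, or to have risen or fallen, when its limma p adjusted over all 13973 genes by Benjamini-Hochberg was under 0.05. Differences are TBI minus Sham on that log2 scale, with the standard error (SE) of the fit, and the values of a group are given in the order of its libraries 1, 2 and 3 (n = 3 in each group). Gene positions are those of GENCODE M21 (GRCm38). Of all genes tested, 2894 (20.7%) were called, 1614 (11.6%) of them higher and 1280 (9.16%) lower in TBI. The median difference over all genes was 0.00. At least 2-fold differences were found in 1061 called genes (7.59%), 858 higher in TBI (6.14%) and 203 lower (1.45%). Called differences of at least 4-fold were found in 223 genes higher and 10 lower, and of at least 8-fold in 43 higher and 0 lower. The median difference was 1.05 over the genes called higher and -0.63 over those called lower. Groups without overlap were found in 6007 genes (43%), with TBI above Sham in 3100 (22.2%) and below it in 2907 (20.8%), and these included all 2894 called genes.

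The number of calls depended on the Sham libraries: leaving out Sham 1 left 1034, leaving out Sham 2 left 1231 and leaving out Sham 3 left 948. It was 3689 without TBI 3. No call turned round in any alternative, and 841 genes, 479 higher and 362 lower, were called again without each of the 6 libraries in turn. Relabelling 3 and 3 libraries of 1 gene allows no two-sided exact p below 0.1, and the calls use the variance that limma shares across genes.

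Calls in the 2 directions fell at different levels of expression. Among 2043 genes with a mean of 1 to 3 FPKM over the 6 libraries, 18.2% were called higher and 1.91% lower in TBI. Among 2227 genes with a mean of 30 to 100 FPKM, 6.11% were called higher and 19.0% lower, and among the 740 genes at 100 FPKM or more 12.6% were higher and 22.4% lower. As a share of all FPKM, the called-higher genes made up 17.0%, 13.01% and 11.7% in TBI and 6.48%, 6.83% and 6.48% in Sham. The called-lower genes made up 11.5%, 13.3% and 12.8% in TBI and 19.8%, 19.9% and 19.9% in Sham. Both sets were picked by their direction in these same libraries, so the direction of the shares was fixed and only their size is described.

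**Figure D1:**
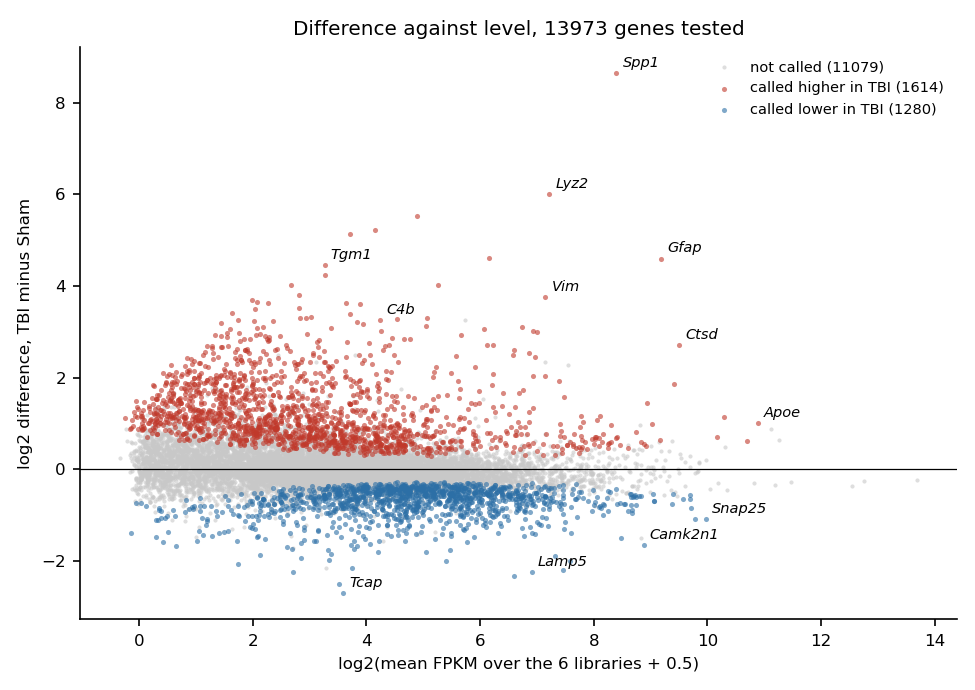
Log2 difference, TBI minus Sham, of each of the 13973 genes tested against log2 of its mean FPKM over the 6 libraries plus 0.5. Genes called higher in TBI are red (1614), genes called lower are blue (1280) and the rest grey; differences above 0 reach 8.65 (Spp1) and those below 0 reach -2.71 among called genes (Tcap).

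**Figure D2:**
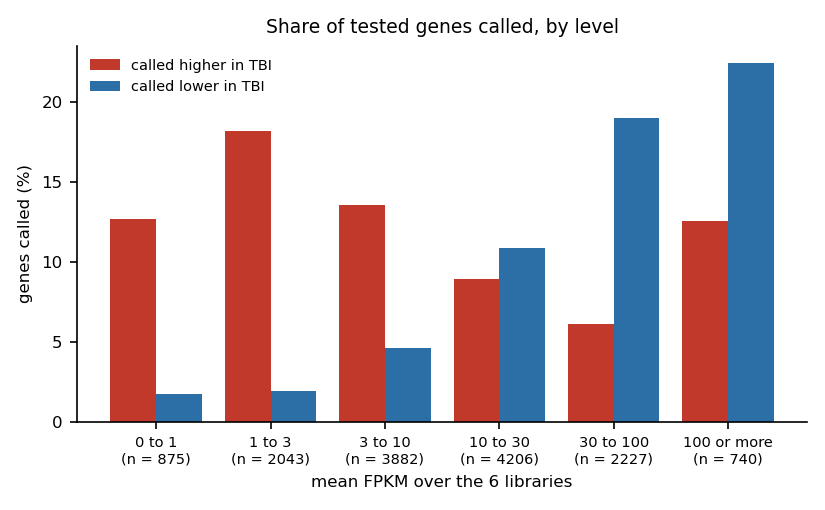
Share of tested genes called higher (red) and lower (blue) in TBI, in bins of mean FPKM over the 6 libraries, with the number of genes in each bin under the axis. Calls in TBI were more often higher than lower below a mean of 10 FPKM and more often lower than higher above it.

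The largest difference on the log2 scale was in Spp1, the secreted matrix protein osteopontin, at 1345, 372 and 298 FPKM in TBI and 0.509, 2.15 and 0.356 FPKM in Sham (log2 difference 8.65, SE 0.63, adjusted p = 0.00213). The genes with the largest gains in FPKM included a lipid carrier, a lysosomal protease, a ferritin chain and an actin-binding peptide. Apoe, the main lipid carrier of the brain, was at 2764, 2616 and 2203 FPKM in TBI and 1279.8, 1313 and 1191 FPKM in Sham (log2 difference 0.998, SE 0.17, adjusted p = 0.0101; not called without Sham 3, with adjusted p = 0.0591). Ctsd, the lysosomal protease cathepsin D, was at 1667, 1422 and 728 FPKM in TBI and 162, 197 and 192 FPKM in Sham (chr7:142375911-142388038, log2 difference 2.71, SE 0.30, adjusted p = 0.00313). Ftl1, the light chain of ferritin, the iron store of cells, was at 1679.6, 871 and 703 FPKM in TBI and 279, 289 and 266 FPKM in Sham (chr7:45457944-45459884, log2 difference 1.86, SE 0.30, adjusted p = 0.00798). TBI 1 was highest for all of these, and every TBI library lay above every Sham library. Tmsb4x, which encodes the actin-binding peptide thymosin beta 4, was at 2489, 1557 and 1202 FPKM in TBI and 839.8, 748 and 700.003 FPKM in Sham (log2 difference 1.13, SE 0.27, adjusted p = 0.0258; not called without TBI 2 or any Sham library, with adjusted p up to 0.101). The translation factor gene Eef1a1 was at 1536, 1485 and 1282 FPKM in TBI and 865, 908 and 847 FPKM in Sham (log2 difference 0.71, SE 0.15, adjusted p = 0.0164; not called without any Sham library, with adjusted p up to 0.0806). Without a filter on low values the calls of Apoe, Tmsb4x and Eef1a1 ended.

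The genes with the largest losses in FPKM included genes of calmodulin and CaMKII signalling. Camk2n1, an inhibitor of the calcium-dependent kinase CaMKII, was at 209.9, 241 and 220.4 FPKM in TBI and 684, 841 and 623 FPKM in Sham (log2 difference -1.67, SE 0.14, adjusted p = 0.00213). Nrgn, the calmodulin-binding protein neurogranin of dendritic spines, was at 669, 568 and 458 FPKM in TBI and 1167, 1105 and 1303 FPKM in Sham (log2 difference -1.09, SE 0.17, adjusted p = 0.00791). In both genes the highest TBI library was below the lowest Sham library, and the calls remained without each library in turn. The calmodulin gene Calm2 (log2 difference -0.65) and the kinase gene Camk2a (log2 difference -0.84) were also called lower, but their calls ended without any of the Sham libraries (adjusted p up to 0.0763 and 0.114 over the libraries left out), and that of Camk2a also without TBI 2. Without a filter on low values, both calls ended as well.

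Among the genes with the smallest p were several that varied little within each group. Tmem132d, a transmembrane protein gene of neurons, was at 5.76, 5.69 and 6.19 FPKM in TBI and 19.1, 20.7 and 18.8 FPKM in Sham (chr5:127781630-128433077, log2 difference -1.65, SE 0.10, adjusted p = 0.0013). Kalrn, an exchange factor for small GTPases that shapes dendritic spines, was at 83.6, 80.03 and 74.3 FPKM in TBI and 183, 187 and 175 FPKM in Sham (log2 difference -1.19, SE 0.09, adjusted p = 0.00213). Kcnh1, a voltage-gated potassium channel, was at 11.9, 13.4 and 12.6 FPKM in TBI and 27.3, 29.2 and 27.1 FPKM in Sham (log2 difference -1.11, SE 0.09, adjusted p = 0.00213). Among the genes higher in TBI, Lrig1, a membrane protein that restrains growth factor receptors, was at 18.8, 18.7 and 18.2 FPKM in TBI and 7.69, 7.17 and 6.99 FPKM in Sham (chr6:94604529-94700158, log2 difference 1.29, SE 0.09, adjusted p = 0.00213). Cd9, a tetraspanin, was at 128, 109.9 and 109 FPKM in TBI and 35.8, 29.4 and 31.05 FPKM in Sham (log2 difference 1.83, SE 0.11, adjusted p = 0.0013). These genes were picked by small p, which favours genes whose libraries lie close together within a group. The 3 libraries of each group did so here, TBI 3 included.

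Some genes were listed at 0 in all Sham libraries and reached 0.5 FPKM in all TBI libraries. The 10 of them with the highest TBI mean were taken, 1 of them a predicted pseudogene (Gm6594). They passed the limit for testing only through the TBI libraries. Their direction was thus fixed by how they were picked, and their calls are not separate support. This also holds for genes named below that were under 0.5 FPKM in every Sham library. Among them are Lcn2, Tgm1, Bcl2a1d, S100a8, Cdk1, Pbk, Cenpf, Gal and Nts, and the list counts below include such genes. Glycam1, a mucin-like ligand of L-selectin, was at 12.6, 4.47 and 3.66 FPKM in TBI. Cd5l, a protein secreted by macrophages, was at 6.18, 6.97 and 2.46 FPKM, and Apoc2, the apolipoprotein that activates lipoprotein lipase, at 6.77, 4.395 and 2.14 FPKM. The IgG receptor gene Fcgr4 was at 7.64, 2.05 and 1.096 FPKM, and Il1rn, the natural antagonist of interleukin 1, at 5.03, 1.63 and 1.12 FPKM. Cyp4f18 (a fatty acid hydroxylase), the lectin gene Clec4d, the chemokine gene Ccl8 and the fatty acid carrier gene Fabp4 were between 0.742 and 3.597 FPKM in the TBI libraries. Against values listed at 0 no fold is given. The authors' interval around the value lay above 0 in all 3 TBI libraries for Cd5l, and in none of them for Apoc2, Cyp4f18, Ccl8, Fabp4 and Gm6594. The calls of Fcgr4 and Clec4d ended without any Sham library (adjusted p up to 0.0636 and 0.065), and that of Il1rn without Sham 1 (adjusted p = 0.05001).

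The promoters of 6 genes are printed because they belong to genes at both ends of the comparison and hold short motifs of factors known in other settings for phagocyte, cell division and activity genes. RefSeq promoter windows (GRCm38.p6, 250 bases before to 50 after a transcript start) were at hand for 10799 of the 13973 genes, in 13916 windows. Capitals mark the motif, on either strand: GAGGAAG, a core bound by the myeloid factor PU.1, in Spp1 and Fcgr3; TGANTCA, bound by AP-1, in Gpnmb and Cd68; TTTGAA, the cell cycle element CHR, and CCAAT, bound by NF-Y, in Ube2c; and the CArG box, bound by serum response factor, in Egr2. The windows lie at chr5:104434861-104435160, plus strand (Spp1), chr1:171059354-171059653, minus strand (Fcgr3), chr6:49036268-49036567, plus strand (Gpnmb), chr11:69666121-69666420, minus strand (Cd68), chr2:164769679-164769978, plus strand (Ube2c) and chr10:67537316-67537615, plus strand (Egr2). They are written 5′ to 3′ on the strand of the gene, and were chosen after values and matches were seen.
Spp1: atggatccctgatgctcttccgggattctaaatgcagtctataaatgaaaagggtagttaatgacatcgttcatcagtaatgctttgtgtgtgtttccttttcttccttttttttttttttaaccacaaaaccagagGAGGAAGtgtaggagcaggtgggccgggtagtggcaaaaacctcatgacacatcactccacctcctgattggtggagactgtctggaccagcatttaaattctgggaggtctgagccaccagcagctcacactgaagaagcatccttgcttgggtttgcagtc
Fcgr3: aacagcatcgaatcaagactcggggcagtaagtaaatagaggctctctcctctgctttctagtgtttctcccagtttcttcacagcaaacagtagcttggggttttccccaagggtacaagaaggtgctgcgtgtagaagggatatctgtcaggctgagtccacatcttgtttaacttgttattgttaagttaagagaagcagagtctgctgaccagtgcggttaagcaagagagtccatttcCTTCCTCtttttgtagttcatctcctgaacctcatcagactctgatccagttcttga
Gpnmb: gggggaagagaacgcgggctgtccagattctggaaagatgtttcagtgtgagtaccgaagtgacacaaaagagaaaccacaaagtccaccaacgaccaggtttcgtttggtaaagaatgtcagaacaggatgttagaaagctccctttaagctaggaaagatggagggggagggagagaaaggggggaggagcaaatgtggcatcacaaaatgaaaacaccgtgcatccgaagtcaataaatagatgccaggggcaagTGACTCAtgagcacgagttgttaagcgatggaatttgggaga
Cd68: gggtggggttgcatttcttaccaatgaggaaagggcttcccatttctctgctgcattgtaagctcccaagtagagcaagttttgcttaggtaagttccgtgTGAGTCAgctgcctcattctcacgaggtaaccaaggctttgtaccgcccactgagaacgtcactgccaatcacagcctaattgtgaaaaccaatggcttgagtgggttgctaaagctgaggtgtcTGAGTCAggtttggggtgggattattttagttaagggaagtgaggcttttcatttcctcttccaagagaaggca
Ube2c: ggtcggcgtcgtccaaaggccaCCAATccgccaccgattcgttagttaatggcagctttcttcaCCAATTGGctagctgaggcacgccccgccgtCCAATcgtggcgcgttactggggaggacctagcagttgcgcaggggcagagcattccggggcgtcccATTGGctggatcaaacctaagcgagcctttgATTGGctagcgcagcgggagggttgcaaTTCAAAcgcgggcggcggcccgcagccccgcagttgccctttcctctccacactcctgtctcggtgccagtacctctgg
Egr2: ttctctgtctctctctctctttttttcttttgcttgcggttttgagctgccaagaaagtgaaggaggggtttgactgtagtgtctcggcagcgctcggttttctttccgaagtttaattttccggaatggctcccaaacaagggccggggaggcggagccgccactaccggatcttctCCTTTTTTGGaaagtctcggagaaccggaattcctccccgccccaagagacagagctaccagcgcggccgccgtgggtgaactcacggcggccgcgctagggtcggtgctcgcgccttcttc
The AP-1 motif and the CArG box read alike on both strands, and at bases 65 to 72 of the Ube2c window CCAAT matches on opposite strands overlap. Spp1 and Fcgr3 have 2 windows each and Egr2 has 5, of which 1 is shown.

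A match is a run of letters and not a site shown to be bound. GAGGAAG was in 18.9% of 1589 windows of called-higher genes, 14.1% of 1315 windows of called-lower genes and 13.4% of all windows. TGANTCA was in 7.55%, 4.72% and 5.07% of the same sets, and TTTGAA in 14.6%, 9.58% and 11.5%. CCAAT was in 36.2%, 32.2% and 37.2%, and the CArG box in 1.26%, 1.75% and 1.32%. No test was made of these shares, since windows of 1 gene overlap.

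Phagocytes kill and digest with an oxidase in the membrane of the phagosome, and take up antibody-coated targets through Fc receptors. All 7 tested members of the NADPH oxidase list rose (median 2.23; 2 of 9 members were not tested). Cyba, the membrane subunit p22phox, was at 93.8, 52.9 and 31.5 FPKM in TBI and 5.15, 6.14 and 5.84 FPKM in Sham (chr8:122424776-122432930, log2 difference 3.13, SE 0.35, adjusted p = 0.00313). Ncf1, the cytosolic subunit p47phox, was at 22.3, 17.6 and 9.47 FPKM in TBI and 2.74, 2.95 and 3.06 FPKM in Sham (log2 difference 2.23, SE 0.28, adjusted p = 0.0042). Rac2, the GTPase that switches the oxidase on in blood cells, was at 15.2, 8.34 and 4.78 FPKM in TBI and 0.619, 0.724 and 0.772 FPKM in Sham (log2 difference 2.90, SE 0.36, adjusted p = 0.00409). Hvcn1, the proton channel that balances the charge moved by the oxidase, was at 8.69, 8.56 and 5.17 FPKM in TBI and 1.67, 1.38 and 1.31 FPKM in Sham (log2 difference 2.0002). In all 4 genes TBI 1 was the highest and TBI 3 the lowest TBI library, and all lay above the Sham libraries.

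Fc receptors and their adaptors rose in 13 of 14 tested genes (median 1.94; 8 without Sham 1 were called). Fcgr3, a low-affinity IgG receptor whose promoter is printed above, was at 41.3, 25.2 and 18.2 FPKM in TBI and 4.68, 4.06 and 4.24 FPKM in Sham (log2 difference 2.50, SE 0.27, adjusted p = 0.00313). Its signalling chain Fcer1g was at 51.8, 31.6 and 18.2 FPKM in TBI and 2.84, 4.84 and 2.77 FPKM in Sham (log2 difference 3.02). Tyrobp, the adaptor DAP12 of Trem2, was at 236, 215 and 120.1 FPKM in TBI and 21.7, 22.2 and 18.8 FPKM in Sham (log2 difference 3.10). Vav1, an exchange factor downstream of these receptors, was at 15.2, 7.53 and 5.46 FPKM in TBI and 1.07, 1.65 and 1.33 FPKM in Sham (log2 difference 2.31). In the list of microglia and brain macrophages, 18 of 20 genes rose and none fell (median 1.80), among them Irf8, a transcription factor of the microglial lineage (23.05, 14.3 and 10.1 FPKM in TBI and 2.42, 2.398 and 2.81 FPKM in Sham), and the tetraspanin gene Cd53 (log2 difference 2.32). Microglial markers moved with these lists: the summed FPKM of 5 of them was 379, 361 and 216 in TBI and 102, 126 and 97.6 in Sham, and the part of cell number in the gene lists was not tested.

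Most tested lysosomal genes rose, over a wide range of sizes. Of 11 tested cathepsin genes, 8 rose and none fell (median 1.20), and their summed level was 3176, 2555 and 1526 FPKM in TBI and 579, 629 and 600.2 FPKM in Sham. Ctsh was at 50.8, 35.7 and 27.1 FPKM in TBI and 5.35, 7.83 and 5.28 FPKM in Sham (log2 difference 2.50, SE 0.24, adjusted p = 0.00259). Ctsz, cathepsin Z, was at 261, 153 and 89.2 FPKM in TBI and 22.2, 24.9 and 27.6 FPKM in Sham (log2 difference 2.60). Ctss, a cathepsin of antigen-presenting cells, was at 234, 204 and 149.96 FPKM in TBI and 47.5, 54.9 and 39.97 FPKM in Sham (log2 difference 2.02). Of 34 genes for lysosomal membrane proteins, the proton pump and hydrolases, 21 rose and none fell (median 0.64; 13 without Sham 1 and 12 without Sham 3 were called). Cd68, a lysosomal membrane protein of macrophages, was at 98.1, 54.8 and 29.5 FPKM in TBI and 5.55, 4.53 and 5.16 FPKM in Sham (log2 difference 3.30, SE 0.38, adjusted p = 0.00322). Npc2, which carries cholesterol out of lysosomes, was at 56.1, 42.6 and 43.8 FPKM in TBI and 16.6, 18.96 and 17.6 FPKM in Sham (log2 difference 1.39). Gusb, the enzyme beta-glucuronidase, often used as a reference gene, was at 49.5, 26.9 and 22.01 FPKM in TBI and 7.39, 7.54 and 7.95 FPKM in Sham (log2 difference 1.95).

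Genes by which phagocytes store and export lipid rose in 13 of 18 cases and fell in none (median 1.23; 8 without Sham 1, 8 without Sham 2 and 6 without Sham 3 were called). Plin2, the coat protein of lipid droplets, was at 83.8, 24.7 and 18.7 FPKM in TBI and 2.48, 3.53 and 3.17 FPKM in Sham (log2 difference 3.28, SE 0.50, adjusted p = 0.00696), with TBI 1 far above the other TBI libraries. Abca1, the pump that loads cholesterol onto apolipoproteins, was at 11.8, 11.6 and 9.91 FPKM in TBI and 2.96, 3.74 and 3.62 FPKM in Sham (log2 difference 1.56, SE 0.14, adjusted p = 0.00213), with the 3 TBI libraries close together. Lpcat2, which makes phospholipids including platelet-activating factor, was at 10.5, 8.17 and 7.12 FPKM in TBI and 2.99, 3.84 and 2.95 FPKM in Sham (log2 difference 1.27). Of cholesterol synthesis and uptake none of 24 tested genes was called (median -0.14), and the summed level was 454, 402 and 626 FPKM in TBI and 504, 533 and 584 FPKM in Sham. Without TBI 3, the library with the high myelin markers, 10 of the 24 were called and the median was -0.30, and 6 were called with array weights, which give libraries that vary more less weight in the fit.

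Genes of lipid mediators were called in part. Of 19 tested genes of prostaglandin and leukotriene synthesis, 7 rose and none fell (median 0.37; 2 without Sham 1, 4 without Sham 2 and 2 without Sham 3 were called). The summed level of the list overlapped between groups, at 722, 1084 and 672 FPKM in TBI and 791, 1305 and 837 FPKM in Sham. The prostaglandin synthase gene Ptgds had a mean of 677 FPKM in TBI and 876 FPKM in Sham and was not called (adjusted p = 0.397). Alox5ap, the protein that hands arachidonic acid to 5-lipoxygenase, was at 17.7, 8.998 and 7.62 FPKM in TBI and 1.88, 2.53 and 3.04 FPKM in Sham (log2 difference 1.93, SE 0.31, adjusted p = 0.00811). Ltc4s, leukotriene C4 synthase, was at 17.4, 21.7 and 10.02 FPKM in TBI and 2.05, 4.19 and 3.04 FPKM in Sham (log2 difference 2.21). Tbxas1, thromboxane synthase, was at 13.6, 5.23 and 3.25 FPKM in TBI and 0.351, 1.21 and 0.467 FPKM in Sham (log2 difference 2.58). Pla2g4a, the phospholipase that frees arachidonic acid, was at 2.85, 1.53 and 2.41 FPKM in TBI and 0.669, 0.891 and 0.627 FPKM in Sham (log2 difference 1.14). The calls of Tbxas1 and Pla2g4a ended without Sham 1 or Sham 3 (adjusted p up to 0.0604 and 0.0697).

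The called genes of signals between immune cells included receptors as well as ligands. In the list of interleukins, the TNF family and their receptors, 20 of 32 tested genes rose and none fell (median 1.29; 7 without Sham 1, 13 without Sham 2 and 9 without Sham 3 were called). Il16, a ligand of CD4, was at 8.16, 5.57 and 3.93 FPKM in TBI and 0.457, 0.584 and 0.544 FPKM in Sham (log2 difference 2.58, SE 0.25, adjusted p = 0.0026). Il10ra, a chain of the receptor for the anti-inflammatory interleukin 10, was at 11.5, 9.28 and 7.07 FPKM in TBI and 2.53, 2.78 and 2.97 FPKM in Sham (log2 difference 1.56). Csf3r, the receptor of the granulocyte growth factor, was at 12.98, 14.5 and 7.41 FPKM in TBI and 1.89, 1.74 and 1.77 FPKM in Sham (log2 difference 2.35). Of 25 tested chemokines and chemokine receptors, 12 rose and 2 fell (median 1.54; 9 without Sham 1 and 9 without Sham 3 were called). The summed level of the whole list was lower in TBI, at 523, 453 and 430 FPKM in TBI and 569, 596 and 606 FPKM in Sham. Cxcr4, the receptor of Cxcl12, was at 13.2, 5.92 and 5.25 FPKM in TBI and 0.703, 0.568 and 0.611 FPKM in Sham (log2 difference 2.82, SE 0.32, adjusted p = 0.00313). Of 40 interferon-response genes, 11 rose and none fell, and all 40 had a positive difference (median 0.89; 3 without Sham 1, 4 without Sham 2 and 5 without Sham 3 were called, and 19 in the fit of all 3 groups). Ifitm2 was at 46.6, 29.1 and 25.9 FPKM in TBI and 10.9, 11.5 and 12.2 FPKM in Sham (log2 difference 1.47), and how reads shared with the similar Ifitm genes were assigned is not given in the sources used here. Ifi27l2a was at 54.4, 13.1 and 14.99 FPKM in TBI and 1.31, 1.61 and 3.695 FPKM in Sham (log2 difference 3.16; not called without Sham 1, with adjusted p = 0.0502).

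Of the complement list 12 of 21 tested genes rose and none fell (median 1.52; 7 without Sham 1 were called), and their summed level was 1228, 725 and 461 FPKM in TBI and 127, 144 and 132 FPKM in Sham. C1qa, a chain of the starter molecule of the classical pathway, was at 309.95, 209.6 and 118 FPKM in TBI and 32.3, 39.6 and 35.6 FPKM in Sham. In the list of Toll-like receptors and NF-kB, 15 of 33 rose and none fell (median 0.69; 7 without Sham 1, 8 without Sham 2 and 6 without Sham 3 were called), among them Ly86 (59.4, 48.3 and 34.8 FPKM in TBI and 5.74, 7.14 and 5.26 FPKM in Sham) and Cd180 (14.5, 5.699 and 3.31 FPKM in TBI and 0.278, 0.5395 and 0.5496 FPKM in Sham), which form a receptor complex related to Toll-like receptor 4. Of 24 tested genes of antigen presentation, 8 rose and none fell (median 1.15; 15 without TBI 3, 5 without Sham 1, 5 without Sham 2 and 5 without Sham 3 were called, and 13 with array weights). Cd74, the chaperone of class II molecules, was at 24.5, 10.8 and 12.9 FPKM in TBI and 3.68, 3.60 and 1.58 FPKM in Sham (log2 difference 2.24).

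The stated interest of the series was in pyroptosis, cell death through gasdermin pores. Of 20 tested genes of pyroptosis and the inflammasome, 9 rose and none fell (median 0.98; 4 without Sham 1, 4 without Sham 2 and 4 without Sham 3 were called). The pore protein gene Gsdmd was at 8.34, 4.69 and 4.19 FPKM in TBI and 1.21, 1.26 and 1.096 FPKM in Sham (chr15:75862327-75867408, log2 difference 1.83, SE 0.25, adjusted p = 0.00513). Ninj1, which ruptures the membrane of dying cells, was at 32.96, 23.3 and 22.9 FPKM in TBI and 12.04, 12.8 and 11.4 FPKM in Sham (log2 difference 1.08). Casp1, the caspase that cleaves gasdermin D, was at 3.32, 3.13 and 1.08 FPKM in TBI and 1.34, 1.004 and 1.31 FPKM in Sham (adjusted p = 0.188). Nlrp3, an inflammasome sensor, was at 1.78, 0.917 and 0.514 FPKM in TBI and 0.107, 0.593 and 0.188 FPKM in Sham (adjusted p = 0.108). Il18, a cytokine that the inflammasome releases, was at 16.96, 17.6 and 16.4 FPKM in TBI and 16.3, 14.6 and 13.6 FPKM in Sham (adjusted p = 0.218). The calls of Casp1 and Nlrp3 were reached without TBI 3 (adjusted p = 0.00694 and 0.0435). Il1b was below the limit for testing, at 1.35, 0.445 and 0.279 FPKM in TBI and 0.272, 0.0978 and 0.236 FPKM in Sham. In the apoptosis and necroptosis list 6 of 30 rose and none fell (median 0.49; 3 without TBI 2, 13 without TBI 3, 1 without Sham 1, 3 without Sham 2 and 1 without Sham 3 were called), among them Bcl2a1d, a survival protein of blood cells with near-identical copies that share reads (6.11, 4.26 and 2.52 FPKM in TBI and 0.252, 0.0976 and 0 FPKM in Sham), and Cflar, an inhibitor of caspase 8 (6.35, 5.67 and 5.28 FPKM in TBI and 2.72, 3.56 and 2.67 FPKM in Sham; not called without Sham 1 or Sham 3, with adjusted p up to 0.0563). The count of the list was 3 after quantile normalization or when no filter was used, 12 in the fit of all 3 groups and 14 with array weights. Of the list 20.0% were called, all higher, against 20.7% of all tested genes called and 11.6% called higher.

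Genes of cells from the blood rose in part. Among listed genes of infiltrating monocytes and macrophages, 10 of 14 tested genes rose and none fell (median 1.96; 6 of 20 members, Ccr2 and Chil3 among them, were below the limit; 6 without Sham 1, 5 without Sham 2 and 5 without Sham 3 were called). S100a4, a calcium-binding protein of moving cells, was at 39.3, 24.8 and 12.4 FPKM in TBI and 1.61, 2.32 and 2.21 FPKM in Sham (log2 difference 3.22). Ms4a7, a marker of macrophages outside the brain parenchyma, was at 3.14, 2.05 and 1.73 FPKM in TBI and 0.199, 0.619 and 0.0544 FPKM in Sham (log2 difference 1.86). The summed FPKM of the 5 defining markers of these cells overlapped between groups, at 19.7, 21.2 and 8.85 in TBI and 7.85, 22.9 and 17.5 in Sham. Of 15 neutrophil genes 4 were tested and 2 rose, Csf3r and S100a8. Ly6g, Ngp, Mpo and Elane were among the members below the limit, and Csf3r, given above, was present in every Sham library. S100a8 was at 0.792, 1.22 and 1.17 FPKM in TBI and 0.4502, 0.291 and 0 FPKM in Sham (log2 difference 1.10; not called without TBI 2, TBI 3 or any Sham library, with adjusted p up to 0.108). S100a9 was at 2.89, 1.99 and 0.874 FPKM in TBI and 0.7701, 0.425 and 0.812 FPKM in Sham (adjusted p = 0.0881). The call of S100a8 also ended with a pseudocount of 0.1, after quantile normalization, in the fit of all 3 groups and with the replicate block. Of 18 genes of T cells, B cells and natural killer cells 2 were tested, and neither was called.

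Hemoglobin RNA, a sign of blood in the tissue, was spread widely in both groups. Hba-a1 was at 100.4, 522 and 317 FPKM in TBI and 21.6, 98.5 and 65.6 FPKM in Sham (log2 difference 2.28, adjusted p = 0.0595). Hbb-bs was at 74.2, 416 and 226 FPKM in TBI and 15.8, 72.6 and 44.9 FPKM in Sham (log2 difference 2.34, adjusted p = 0.0575). TBI 1 lay just above the highest Sham library in both, far below the other TBI libraries, and near-identical globin copies share reads. None of 6 tested red cell genes was called, while 4 were called without TBI 1, 1 without TBI 2, 3 in the fit of all 3 groups, and 4 with the replicate block or array weights. Genes that handle heme and iron rose in 6 of 18 cases (33.3%, against 11.6% of all tested genes called higher) and fell in none (median 0.62). Hmox1, which degrades heme, was at 299, 64.9 and 52.9 FPKM in TBI and 3.46, 3.63 and 3.802 FPKM in Sham (log2 difference 4.62, SE 0.59, adjusted p = 0.00417). Slc11a1, which pumps iron out of phagosomes, was at 13.6, 6.73 and 6.24 FPKM in TBI and 0.995, 0.8602 and 0.929 FPKM in Sham (log2 difference 2.63). Lcn2, which binds iron-carrying siderophores, was at 42.1, 14.7 and 18.6 FPKM in TBI and 0.178, 0.349 and 0 FPKM in Sham (log2 difference 5.13). TBI 1, the TBI library with the least hemoglobin RNA, had the most Hmox1.

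Coagulation and fibrinolysis genes rose in 12 of 15 tested cases and fell in none (median 1.36; 6 without Sham 1, 7 without Sham 2 and 5 without Sham 3 were called). Plat, the tissue plasminogen activator, was at 21.5, 21.2 and 20.04 FPKM in TBI and 13.9, 13.96 and 13.5 FPKM in Sham (log2 difference 0.59, SE 0.09, adjusted p = 0.00612). Anxa2, which binds plasminogen and its activator at the cell surface, was at 43.9, 21.4 and 19.03 FPKM in TBI and 4.29, 7.12 and 3.88 FPKM in Sham (log2 difference 2.30). The thrombin receptor gene F2r was at 6.77, 5.14 and 6.69 FPKM in TBI and 3.06, 3.099 and 3.15 FPKM in Sham (log2 difference 0.89). Procr, the endothelial receptor of protein C, was at 4.898, 3.22 and 2.46 FPKM in TBI and 1.13, 0.922 and 1.02 FPKM in Sham (log2 difference 1.36). Plat differed little in size but its TBI and Sham libraries were clearly separate.

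Adhesion molecules by which leukocytes leave vessels rose in 8 of 12 tested cases and fell in none (median 0.87; 3 without Sham 1 and 4 without Sham 3 were called). Icam1 was at 9.61, 5.43 and 4.71 FPKM in TBI and 1.06, 1.25 and 0.896 FPKM in Sham (log2 difference 2.12, SE 0.26, adjusted p = 0.00402). Itgb2, the integrin chain that binds it, was at 23.6, 13.3 and 8.06 FPKM in TBI and 1.65, 2.08 and 1.46 FPKM in Sham (log2 difference 2.68). In genes of the vessel wall itself the share called higher was near that of all tested genes (11.6%). Of 22 endothelial and blood-brain barrier genes, 3 rose (13.6%) and none fell (median 0.32; 9 without TBI 2, 1 without Sham 1 and 0 without Sham 3 were called, and 7 in the fit of all 3 groups). Cldn5, the tight junction protein claudin 5, was at 109, 53.5 and 64.4 FPKM in TBI and 39.5, 39.7 and 27.2 FPKM in Sham (log2 difference 1.04; not called without any Sham library, with adjusted p up to 0.124), and that call also ended without a filter on low values and without the mean trend. Ocln, a further tight junction gene, was at 5.18, 3.84 and 4.81 FPKM in TBI and 3.03, 3.31 and 2.44 FPKM in Sham (adjusted p = 0.0519). Of 14 pericyte and smooth muscle genes 2 rose (14.3%; median 0.28; 4 were called with a pseudocount of 0.1, with equal FPKM totals or in the fit of all 3 groups), Anpep and Notch3, and both calls ended under quantile normalization, with the replicate block or without a filter on low values. Notch3 was called in none of the fits without 1 library, and Anpep in that without Sham 2 alone.

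Angiogenic factors and receptors rose in 8 of 19 cases and fell in none (median 0.32; 5 without TBI 1, 4 without TBI 2, 3 without Sham 1, 3 without Sham 2 and 3 without Sham 3 were called), and in 3 after quantile normalization. Nrp1, a co-receptor of vascular endothelial growth factor and semaphorins, was at 12.5, 8.75 and 8.35 FPKM in TBI and 2.49, 2.64 and 2.71 FPKM in Sham (log2 difference 1.71, SE 0.17, adjusted p = 0.00267). Its relative Nrp2 was at 13.5, 7.79 and 8.24 FPKM in TBI and 2.97, 3.48 and 2.72 FPKM in Sham (log2 difference 1.503). Pgf, placental growth factor, was at 2.94, 2.21 and 2.203 FPKM in TBI and 0.588, 0.9205 and 0.924 FPKM in Sham (log2 difference 1.17). Genes of TGF-beta and activin signalling rose in 6 of 21 cases (28.6%, against 11.6% of all tested genes called higher; median 0.35; 3 without Sham 3 were called). Tgfb1, the ligand, was at 18.4, 9.91 and 8.82 FPKM in TBI and 3.19, 3.63 and 2.72 FPKM in Sham (log2 difference 1.74, SE 0.27, adjusted p = 0.00712). Tgfbi, a matrix protein that it induces, was at 18.8, 7.51 and 5.92 FPKM in TBI and 1.29, 2.04 and 1.21 FPKM in Sham (log2 difference 2.33). Tgif1, a repressor of the pathway, was at 7.38, 2.93 and 3.18 FPKM in TBI and 0.817, 0.852 and 0.725 FPKM in Sham (log2 difference 1.84).

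**Figure D3:**
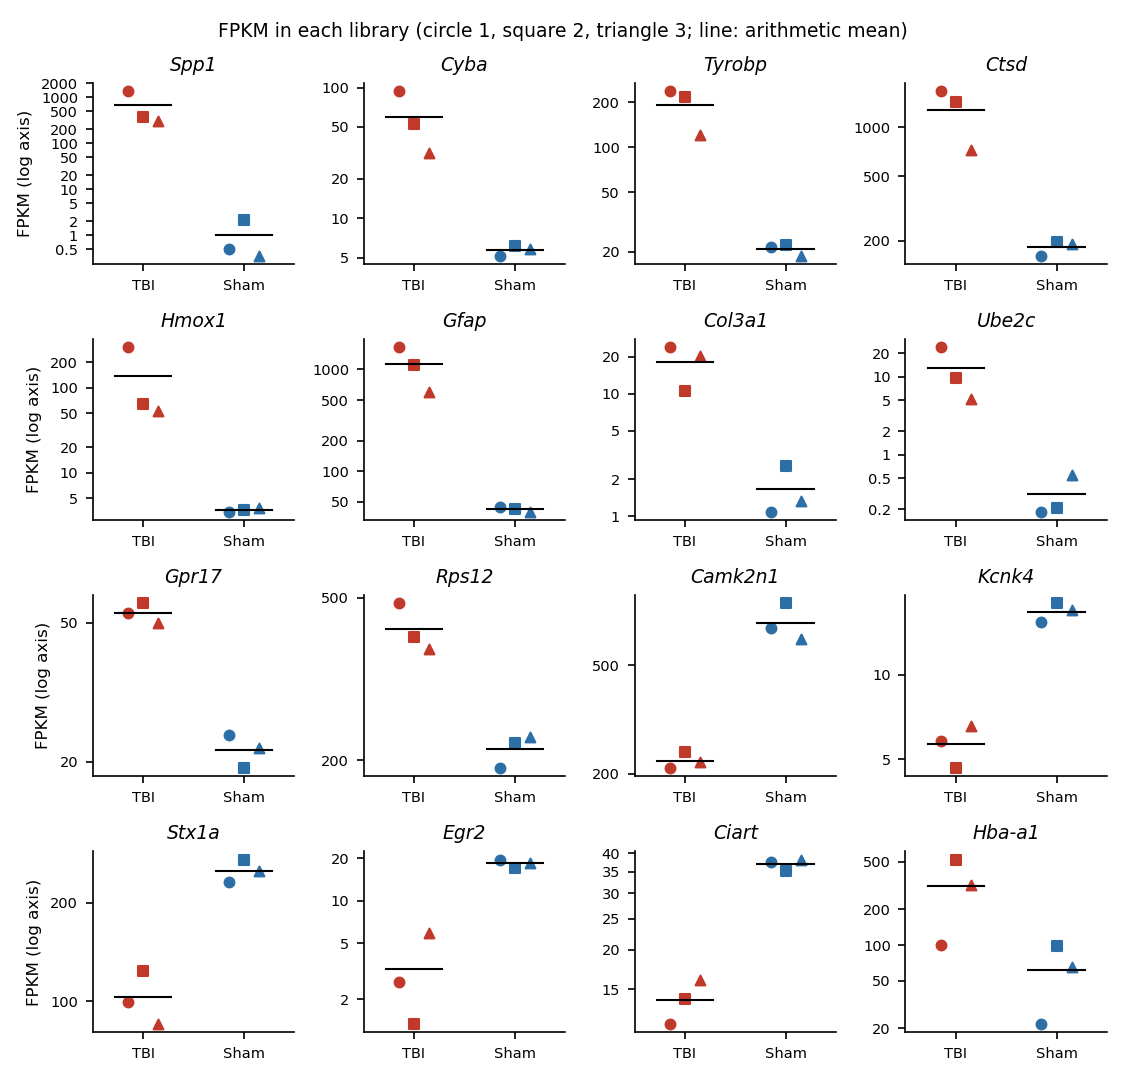
FPKM of 16 genes described in the text in each library, on log axes that differ between panels; TBI is red and Sham blue, circles, squares and triangles are libraries 1, 2 and 3, and the line is the arithmetic mean of the group. Hba-a1 is the only gene shown that was not called, and its lowest TBI library lies beside its highest Sham library.

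Many genes of the matrix rose. Of 23 collagen genes 14 rose and none fell (median 0.92; 9 without TBI 1, 6 without Sham 1, 7 without Sham 2 and 7 without Sham 3 were called), with 7 called when no filter was used, 8 after quantile normalization and 9 with the replicate block. Col3a1, a fibrillar collagen of vessels and scars, was at 23.8, 10.4 and 20.3 FPKM in TBI and 1.09, 2.55 and 1.34 FPKM in Sham (chr1:45311538-45349706, log2 difference 3.09, SE 0.35, adjusted p = 0.00313). Col1a1, the main collagen of fibroblasts, was at 28.8, 10.6 and 25.2 FPKM in TBI and 1.73, 4.56 and 1.77 FPKM in Sham (log2 difference 2.78). Col5a2 was at 3.47, 1.63 and 2.57 FPKM in TBI and 0.244, 0.503 and 0.235 FPKM in Sham (log2 difference 1.86). In these 3 genes TBI 2, not TBI 3, was the lowest TBI library and Sham 2 the highest Sham library. Among proteases and inhibitors of the matrix, 10 of 18 tested genes rose and 1 fell (median 0.74; 4 without Sham 1, 7 without Sham 2 and 5 without Sham 3 were called). Timp1, an inhibitor of metalloproteases, was at 28.4, 15.98 and 9.54 FPKM in TBI and 0.0993, 0.731 and 0.468 FPKM in Sham (log2 difference 4.24, SE 0.41, adjusted p = 0.00259), with authors' intervals that included 0 in all 3 TBI libraries. Mmp2, a gelatinase, was at 5.36, 4.44 and 3.86 FPKM in TBI and 0.917, 1.48 and 0.843 FPKM in Sham (log2 difference 1.69), and Mmp14, the membrane protease that activates it, at 23.6, 11.3 and 10.6 FPKM in TBI and 3.41, 3.87 and 3.18 FPKM in Sham (log2 difference 1.89). Mmp9, the gelatinase of neutrophils, was at 0.923, 1.12 and 1.22 FPKM in TBI and 1.001, 1.28 and 0.552 FPKM in Sham (log2 difference 0.17, adjusted p = 0.657), and the groups overlapped. In the list of proteoglycans and glial scar matrix, 15 of 30 tested genes rose and 1 fell (median 0.98; 8 without Sham 1 and 9 without Sham 3 were called). Sparc, a collagen-binding protein, was at 209.7, 253 and 331 FPKM in TBI and 67.2, 73.5 and 64.2 FPKM in Sham (log2 difference 1.92, SE 0.17, adjusted p = 0.00213), and was highest in TBI 3. The galectin gene Lgals1 was at 201, 98.9 and 60.7 FPKM in TBI and 11.4, 15.1 and 10.8 FPKM in Sham (log2 difference 3.06) and was highest in TBI 1.

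Reactive astrocyte genes rose in 21 of 28 cases, and all 28 had a positive difference (median 1.93; 11 without Sham 1 and 11 without Sham 3 were called). Gfap, the filament of reactive astrocytes, was at 1646, 1108 and 605 FPKM in TBI and 44.7, 42.3 and 39.8 FPKM in Sham (chr11:102887336-102900912, log2 difference 4.597, SE 0.32, adjusted p = 0.00213). Vim, a filament of astrocytes and macrophages, was at 489, 174 and 134 FPKM in TBI and 16.7, 18.4 and 14.04 FPKM in Sham (log2 difference 3.75). Serpina3n, a protease inhibitor, was at 111, 84.8 and 71.9 FPKM in TBI and 11.1, 10.9 and 11.3 FPKM in Sham (log2 difference 2.93, SE 0.15, adjusted p = 0.000798). Of 20 homeostatic astrocyte genes 7 rose and 1 fell (median 0.34; 5 without TBI 2, 3 without Sham 1 and 2 without Sham 3 were called). The water channel gene Aqp4 was at 60.9, 56.2 and 58.6 FPKM in TBI and 11.4, 16.7 and 11.9 FPKM in Sham (log2 difference 2.11, SE 0.15, adjusted p = 0.00213). Gja1, the gap junction protein connexin 43, was at 128, 125 and 111 FPKM in TBI and 59.1, 77.5 and 57.1 FPKM in Sham (log2 difference 0.92). Kcnj10, the potassium channel of astrocyte end feet, was at 97.6, 78.997 and 109 FPKM in TBI and 58.7, 64.8 and 51.1 FPKM in Sham (log2 difference 0.70; not called without Sham 1 or Sham 3, with adjusted p up to 0.0718). The list means of homeostatic genes were alike in the TBI libraries (0.40, 0.33 and 0.37 on the log2 scale, after each gene's Sham mean was subtracted), while those of the reactive list were 2.93, 1.78 and 1.66. The 5 astrocyte markers used to compare libraries summed to 623, 633 and 589 FPKM in TBI and 466, 591 and 494 FPKM in Sham.

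Genes of the actin and intermediate filament cytoskeleton rose in 17 of 42 cases and 3 fell (median 0.56; 7 without Sham 1, 7 without Sham 2 and 6 without Sham 3 were called, and 13 when no filter was used). Capg, which caps actin filaments in macrophages, was at 41.6, 13.7 and 13.3 FPKM in TBI and 1.24, 1.02 and 1.17 FPKM in Sham (log2 difference 3.63, SE 0.41, adjusted p = 0.00313). Plek, the platelet and leukocyte protein pleckstrin, was at 25.4, 16.5 and 9.55 FPKM in TBI and 2.97, 2.86 and 3.02 FPKM in Sham (log2 difference 2.25). Myo1f, a myosin of leukocytes, was at 16.9, 8.73 and 5.52 FPKM in TBI and 1.16, 1.299 and 1.04 FPKM in Sham (log2 difference 2.57). Actb, the beta-actin often used as a reference, was at 951, 572 and 542 FPKM in TBI and 411, 435 and 484 FPKM in Sham (log2 difference 0.59, adjusted p = 0.104). Tgm1, a transglutaminase known from the skin barrier, had a larger difference than these, at 39.4, 11.1 and 3.92 FPKM in TBI and 0.0897, 0.0928 and 0.0445 FPKM in Sham (log2 difference 4.46, SE 0.69, adjusted p = 0.00727).

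Protective genes against oxidation and heat also rose in part. Of 35 tested targets of the oxidation sensor Nrf2 and genes of glutathione and ferroptosis, 15 rose and none fell (median 0.47; 3 without Sham 1, 9 without Sham 2 and 4 without Sham 3 were called). Mgst1, a membrane glutathione transferase, was at 19.5, 11.1 and 16.8 FPKM in TBI and 3.33, 2.93 and 3.12 FPKM in Sham (log2 difference 2.13, SE 0.21, adjusted p = 0.00258). Among metallothioneins and heat shock proteins, 7 of 21 rose and none fell (median 0.28; 2 without Sham 1, 3 without Sham 2 and 2 without Sham 3 were called), and 4 when no filter was used. The metal-binding gene Mt2 was at 1067, 606 and 509.7 FPKM in TBI and 193, 293 and 285 FPKM in Sham (log2 difference 1.45; not called without Sham 1 or Sham 3, with adjusted p up to 0.0661). The small heat shock gene Hspb8 was at 29.3, 19.98 and 18.3 FPKM in TBI and 7.25, 7.39 and 5.02 FPKM in Sham (log2 difference 1.70). The unfolded protein response, a signal of protein overload in the endoplasmic reticulum, gave 2 higher and 1 lower of 25 tested genes (median 0.13; 5 without TBI 2, 7 without TBI 3, 1 without Sham 1, 0 without Sham 2 and 0 without Sham 3 were called, 6 in the fit of all 3 groups and 9 with array weights). Its sensor gene Atf6 fell, at 10.3, 8.62 and 9.42 FPKM in TBI and 13.4, 15.2 and 15.1 FPKM in Sham (log2 difference -0.60; not called without Sham 2 or Sham 3, with adjusted p up to 0.064). Its target Sdf2l1 rose, at 30.5, 17.9 and 19.95 FPKM in TBI and 11.4, 13.3 and 12.9 FPKM in Sham (log2 difference 0.80; not called without any Sham library, with adjusted p up to 0.108).

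Of 71 tested ribosomal protein genes 35 rose and none fell, and 69 had a positive difference (median 0.47). Their summed level was 26871, 23751 and 22102 FPKM in TBI and 17602, 18002 and 17689.5 FPKM in Sham. Rps12 was at 484, 401 and 375 FPKM in TBI and 192, 221 and 229 FPKM in Sham (log2 difference 0.97, SE 0.13, adjusted p = 0.00544). Rplp0, a protein of the ribosomal stalk, was at 444, 327 and 313 FPKM in TBI and 157, 182 and 169 FPKM in Sham (log2 difference 1.08). The count varied with the libraries (22 without TBI 2, 6 without Sham 1, 10 without Sham 2 and 6 without Sham 3 were called), and was 55 with array weights. Ribosomal protein genes have many near-identical processed copies, and how such reads were shared out is not given in the sources used here. Rps3a1 was at 332, 288 and 288 FPKM in TBI and 159, 148 and 137 FPKM in Sham (log2 difference 1.03), but its call ended in the fit of all 3 groups. Of 34 proteasome genes none was called without Sham 3, while 4 were called after quantile normalization or with array weights. In the fit used throughout, 2 rose (5.88%, against 11.6% of all tested genes called higher) and none fell (median 0.07). Both are activator subunits induced by interferon, Psme1 (41.5, 32.8 and 28.8 FPKM in TBI and 20.5, 20.2 and 17.6 FPKM in Sham; not called without Sham 3, with adjusted p = 0.0559) and Psme2 (26.5, 21.7 and 20.05 FPKM in TBI and 13.2, 17.6 and 15.9 FPKM in Sham; not called without TBI 1, TBI 2 or any Sham library, with adjusted p up to 0.137).

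Many cell division genes were low in Sham and higher in every TBI library. Of 48 tested cell cycle genes 29 rose and 2 fell (median 1.59). The count without a library was lower for each Sham library (9 without Sham 1, 11 without Sham 2 and 12 without Sham 3 were called). Ube2c, which drives cells out of mitosis and whose promoter is printed above, was at 23.8, 9.55 and 5.11 FPKM in TBI and 0.185, 0.209 and 0.551 FPKM in Sham (chr2:164769898-164778822, log2 difference 3.80, SE 0.50, adjusted p = 0.00447). Cdk1, the kinase that starts mitosis, was at 12.7, 4.88 and 3.32 FPKM in TBI and 0.207, 0.0575 and 0.325 FPKM in Sham (log2 difference 3.23, SE 0.44, adjusted p = 0.00508). The mitotic kinase gene Pbk was at 13.3, 5.04 and 3.12 FPKM in TBI and 0.0797, 0 and 0.172 FPKM in Sham (log2 difference 3.49). Cenpf, a centromere protein, was highest in TBI 3, at 1.23, 0.982 and 1.94 FPKM in TBI and 0.0311, 0.0131 and 0.0299 FPKM in Sham (log2 difference 1.81). Cdk1, Pbk and Cenpf were under 0.5 FPKM in every Sham library, so they passed the limit for testing only through TBI. Their direction was fixed by that limit, and the count of the list includes such genes. Of 19 tested p53 targets and genes of growth arrest 2 rose and 2 fell (median 0.08; 1 without Sham 2 and 2 without Sham 3 were called, and 8 with array weights). The share of this list called was 21.1%, near the 20.7% of all tested genes. The cell cycle inhibitor gene Cdkn2c rose (13.6, 7.28 and 4.797 FPKM in TBI and 2.77, 1.34 and 0.965 FPKM in Sham; not called without Sham 2 or Sham 3, with adjusted p up to 0.0662), and Btg2, an antiproliferative gene that is also activity-induced, fell (10.5, 8.26 and 13.1 FPKM in TBI and 46.5, 26.3 and 21.7 FPKM in Sham).

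In the oligodendrocyte lineage, most calls were in genes of precursors. All 18 tested genes of precursors and newly formed cells had a positive difference and 10 rose (median 0.77; 5 without TBI 1, 5 without Sham 1, 3 without Sham 2 and 3 without Sham 3 were called). Gpr17, a receptor of cells about to differentiate, was at 53.2, 56.7 and 49.8 FPKM in TBI and 23.9, 19.2 and 21.8 FPKM in Sham (chr18:31942997-31949636, log2 difference 1.28, SE 0.11, adjusted p = 0.00213). Olig1, a transcription factor of the lineage, was at 150.3, 105 and 152 FPKM in TBI and 68.7, 64.7 and 79.4 FPKM in Sham (log2 difference 0.92; not called without Sham 1, with adjusted p = 0.0502). Neu4, a sialidase, was at 10.4, 9.89 and 10.8 FPKM in TBI and 6.83, 5.09 and 4.38 FPKM in Sham (log2 difference 0.89; not called without Sham 2, with adjusted p = 0.0518). Of 24 genes of myelin and mature oligodendrocytes 2 rose (8.33%, against 11.6% of all tested genes called higher) and none fell (median 0.54; 1 without TBI 1, 0 without Sham 1, 0 without Sham 2 and 1 without Sham 3 were called, and 4 with the replicate block). Their summed level was 3229, 3283 and 10326 FPKM in TBI and 3087, 1995 and 3645 FPKM in Sham, high in TBI 3 and overlapping with Sham in the other TBI libraries, and without TBI 3 the median was 0.04. Mbp, myelin basic protein, was at 1816, 1791 and 5340.1 FPKM in TBI and 1555, 978 and 1818 FPKM in Sham (adjusted p = 0.217), and the authors' program gave a failed status for it in Sham 3. Trf, the iron carrier transferrin, was called higher, at 104, 82.996 and 199 FPKM in TBI and 34.02, 27.3 and 55.8 FPKM in Sham (log2 difference 1.67; not called without Sham 1 or Sham 2, with adjusted p up to 0.0791). Genes of ependyma and choroid plexus, the linings of the ventricles, rose in 4 of 11 tested cases (median 1.30; 2 without Sham 1 and 2 without Sham 2 were called). Ttr, the carrier protein that the choroid plexus secretes, was at 36.95, 0.1301 and 269.99 FPKM in TBI and 0.0655, 1.14 and 7.404 FPKM in Sham (log2 difference 3.25, adjusted p = 0.306).

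In 8 lists of neuronal genes more members fell than rose. Of 19 tested general neuron genes 8 fell and none rose (median -0.58; 2 without Sham 1, 2 without Sham 2 and 2 without Sham 3 were called). Rbfox3, the neuronal nuclear antigen NeuN, was at 77.4, 86.5 and 75.7 FPKM in TBI and 159, 157 and 146 FPKM in Sham (log2 difference -0.94, SE 0.09, adjusted p = 0.00259). Vsnl1, a calcium sensor, was at 105, 154 and 150.1 FPKM in TBI and 298, 256 and 283 FPKM in Sham (log2 difference -1.04). Snap25, a protein of vesicle fusion, was at 467, 733 and 753 FPKM in TBI and 1469, 1322 and 1306 FPKM in Sham (log2 difference -1.10; not called without any Sham library, with adjusted p up to 0.0598). The 5 defining neuronal markers summed to 1371, 1940 and 1525 FPKM in TBI and 2928, 2786 and 2823 FPKM in Sham, and whether the gene groups below fell more than these was not tested. The summed FPKM of the 4 cortical markers given further below was also lower in every TBI library. The part of a different share of cortex in these falls was not tested.

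At the synapse, 16 of 32 genes of vesicles and release fell and 1 rose (median -0.60; 4 without Sham 1, 4 without Sham 2 and 4 without Sham 3 were called). Stx1a, the fusion protein syntaxin 1A, was at 99.6, 123 and 84.95 FPKM in TBI and 231, 271 and 250.2 FPKM in Sham (chr5:135023482-135051100, log2 difference -1.30, SE 0.15, adjusted p = 0.00313). Unc13a, which primes vesicles, was at 30.3, 38.2 and 38.9 FPKM in TBI and 63.3, 65.5 and 66.8 FPKM in Sham (log2 difference -0.86). Rims1, a scaffold of the release site, was at 28.1, 43.9 and 47.3 FPKM in TBI and 82.2, 105 and 86.5 FPKM in Sham (log2 difference -1.21). Doc2b, a calcium sensor of slow release, was the member that rose, at 12.6, 8.05 and 10.4 FPKM in TBI and 3.03, 2.49 and 4.01 FPKM in Sham (log2 difference 1.56, SE 0.21, adjusted p = 0.00508). Of 35 glutamate receptor and scaffold genes 16 fell and 1 rose (median -0.47; 10 without Sham 1, 9 without Sham 2 and 7 without Sham 3 were called). The AMPA receptor gene Gria3 was at 27.4, 28.9 and 33.3 FPKM in TBI and 49.8, 52.9 and 55.4 FPKM in Sham (log2 difference -0.81). Cacng3, which carries AMPA receptors to the synapse, was at 26.9, 34.96 and 26.5 FPKM in TBI and 60.3, 69.5 and 64.9 FPKM in Sham (log2 difference -1.14). The scaffold gene Dlgap1 was at 69.8, 83.6 and 68.9 FPKM in TBI and 129, 134 and 128 FPKM in Sham (log2 difference -0.82).

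On the inhibitory side, 7 of 21 genes of GABA receptors and synthesis fell and 1 rose (median -0.44; 2 without Sham 1, 3 without Sham 2 and 3 without Sham 3 were called), and 5 were called after quantile normalization or when no filter was used. Gabrd, the subunit of receptors outside the synapse, was at 21.2, 19.1 and 34.5 FPKM in TBI and 62.1, 63.4 and 67.3 FPKM in Sham (log2 difference -1.40, SE 0.21, adjusted p = 0.00624). The list mean was -0.79 in TBI 1, -0.32 in TBI 2 and -0.01 in TBI 3. Of 19 interneuron markers 8 fell and none rose (median -0.59; 5 without Sham 2 and 5 without Sham 3 were called). The neuropeptide gene Vip was at 13.5, 19.99 and 13.5 FPKM in TBI and 40.7, 43.2 and 41.3 FPKM in Sham (log2 difference -1.41). The neuropeptide gene Npy was at 74.02, 76.99 and 110.4 FPKM in TBI and 189, 240.4 and 189 FPKM in Sham (log2 difference -1.25). Calb1, the calcium buffer calbindin, was at 21.8, 22.6 and 16.8 FPKM in TBI and 37.3, 40.4 and 34.3 FPKM in Sham (log2 difference -0.86).

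Among ion channels that set excitability, more genes fell than rose. Of potassium channel genes 53.3% were called and of sodium and calcium channel genes 40.7%, against 20.7% of all tested genes. Of 45 tested potassium channel genes 22 fell and 2 rose (median -0.57; 14 without Sham 1 and 14 without Sham 3 were called). Kcnk4, a background channel opened by stretch and lipids, was at 5.79, 4.66 and 6.55 FPKM in TBI and 15.3, 17.9 and 16.9 FPKM in Sham (chr19:6923966-6934515, log2 difference -1.49, SE 0.14, adjusted p = 0.00254). Kcnh3, a slow voltage-gated channel, was at 45.3, 41.7 and 36.7 FPKM in TBI and 83.2, 105 and 93.5 FPKM in Sham (log2 difference -1.18). Kcnj9, a channel opened by G proteins, was at 31.6, 43.4 and 36.98 FPKM in TBI and 81.3, 90.7 and 78.5 FPKM in Sham (log2 difference -1.16). Of 27 sodium and calcium channel genes 10 fell and 1 rose (median -0.64; 6 without Sham 1, 4 without Sham 2 and 4 without Sham 3 were called). Scn8a, the sodium channel of the axon's initial segment, was at 31.1, 34.7 and 31.6 FPKM in TBI and 56.3, 59.02 and 56.1 FPKM in Sham (log2 difference -0.81, SE 0.08, adjusted p = 0.00283). Cacna1a, the calcium channel of nerve terminals, was at 25.4, 25.9 and 26.3 FPKM in TBI and 40.9, 43.6 and 43.3 FPKM in Sham (log2 difference -0.71, SE 0.08, adjusted p = 0.00313).

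**Figure D4:**
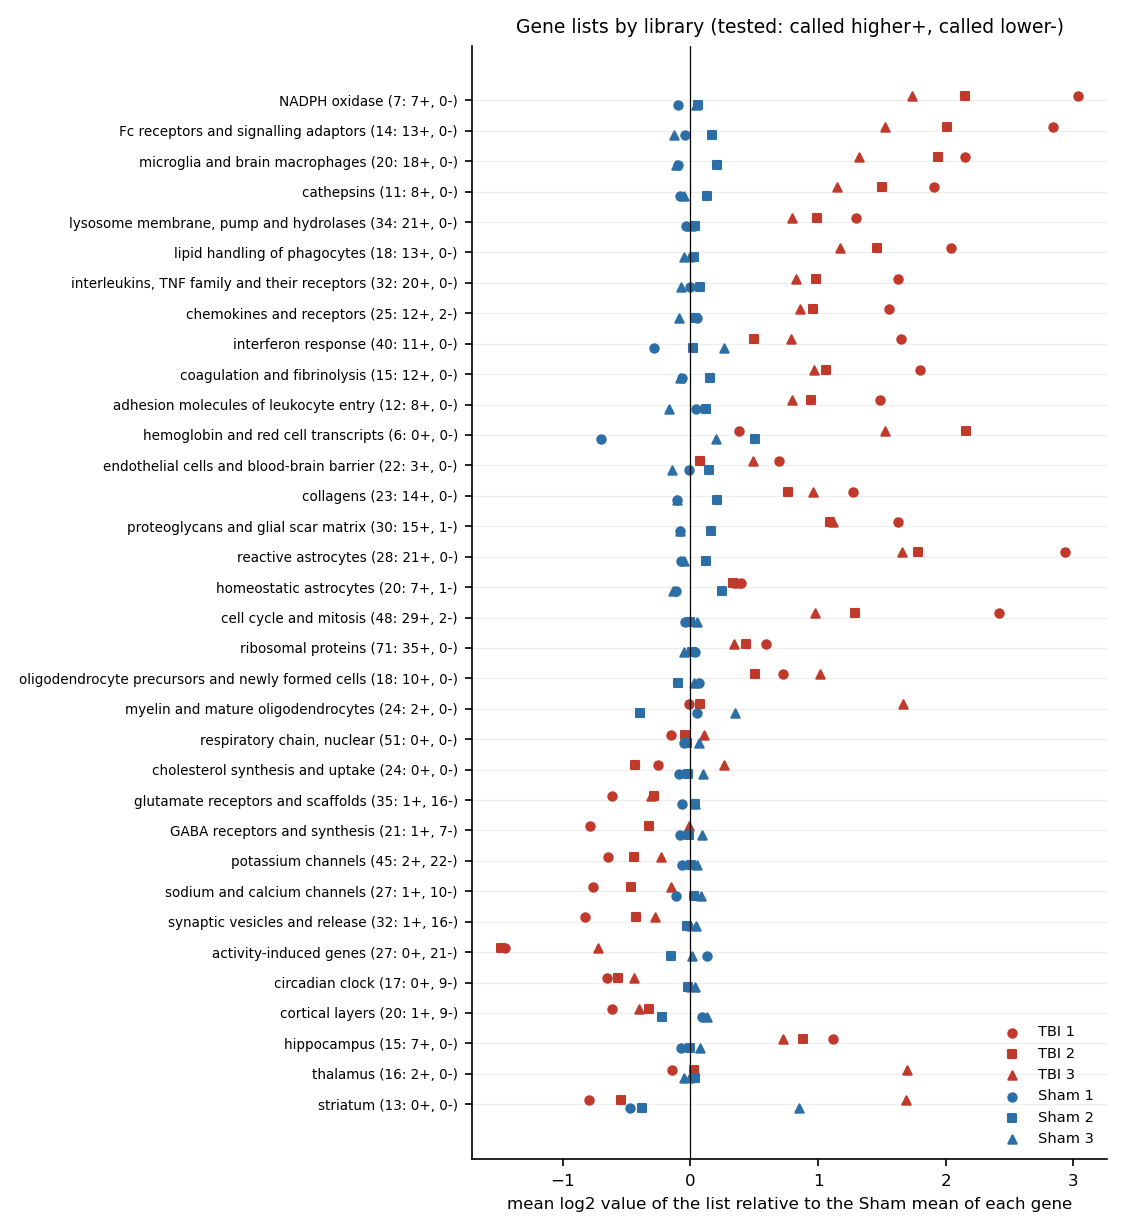
Mean of the tested genes of each list in each library, as log2 values minus each gene's Sham mean; TBI libraries are red, Sham libraries blue, and circles, squares and triangles are libraries 1, 2 and 3. Behind each name stand the genes tested and the genes called higher and lower; TBI 1 lies farthest right in most glial lists, and TBI 3 lies apart in the lists of myelin (1.66), thalamus (1.70) and striatum (1.69).

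Genes induced by neuronal activity fell in 21 of 27 cases, and none rose (median -1.24; 7 without Sham 1 and 9 without Sham 3 were called). Egr2, whose promoter is printed above, was at 2.64, 1.34 and 5.93 FPKM in TBI and 19.6, 17.2 and 18.7 FPKM in Sham (log2 difference -2.51, SE 0.40, adjusted p = 0.00791). Junb, a subunit of AP-1, was at 58.6, 47.2 and 68.2 FPKM in TBI and 185, 139 and 153 FPKM in Sham (log2 difference -1.46, SE 0.16, adjusted p = 0.00313). Egr3, a zinc finger factor related to Egr2, was at 21.8, 23.99 and 35.1 FPKM in TBI and 83.996, 71.9 and 86.4 FPKM in Sham (log2 difference -1.59). Egr4, a further relative, was at 11.2, 11.9 and 30.6 FPKM in TBI and 66.3, 63.4 and 68.2 FPKM in Sham (log2 difference -2.004). TBI 3 was the highest TBI library for all of these, and below every Sham library. Arc, whose product removes AMPA receptors, was at 53.2, 41.96 and 167 FPKM in TBI and 272, 256 and 362 FPKM in Sham (log2 difference -2.02; not called without TBI 1, TBI 2 or any Sham library, with adjusted p up to 0.0932). Npas4, a factor switched on by calcium, was at 2.33, 2.21 and 12.6 FPKM in TBI and 22.9, 18.9 and 18.9 FPKM in Sham (log2 difference -2.15; not called without TBI 1, TBI 2 or any Sham library, with adjusted p up to 0.119). The call of Npas4 also ended without a filter on low values.

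Of 17 tested genes of the circadian clock 9 fell and none rose (median -0.53). Ciart, a repressor of the clock, was at 11.7, 14.01 and 16.02 FPKM in TBI and 37.5, 35.2 and 38.2 FPKM in Sham (chr3:95878503-95882251, log2 difference -1.39, SE 0.13, adjusted p = 0.00232). Bhlhe40, a further repressor, was at 41.4, 39.9 and 44.02 FPKM in TBI and 83.6, 81.2 and 100.2 FPKM in Sham (log2 difference -1.07). Hlf, a transcription factor under clock control, was at 29.1, 35.1 and 37.5 FPKM in TBI and 73.03, 68.4 and 65.5 FPKM in Sham (log2 difference -1.02). Cry2, a core repressor, was at 34.03, 38.3 and 38.2 FPKM in TBI and 58.2, 57.3 and 58.8 FPKM in Sham (log2 difference -0.65). Per1, which is both a clock gene and activity-induced, was at 29.3, 30.7 and 41.2 FPKM in TBI and 68.7, 67.5 and 70.6 FPKM in Sham (log2 difference -1.04). The hour of sampling is not given in the sources used here, so hour and injury cannot be told apart.

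Of 20 genes of injured neurons and axon regeneration 6 rose and 1 fell (median 0.40; 4 without TBI 2, 2 without Sham 1, 2 without Sham 2 and 2 without Sham 3 were called), with 4 called when no filter was used or after quantile normalization and 12 with array weights. Atf3, a transcription factor switched on by axon injury, was at 7.52, 6.595 and 3.62 FPKM in TBI and 0.447, 0.545 and 0.522 FPKM in Sham (log2 difference 2.62, SE 0.26, adjusted p = 0.00267). Gal, the neuropeptide galanin, was at 1.99, 1.65 and 2.33 FPKM in TBI and 0.1202, 0 and 0.255 FPKM in Sham (log2 difference 2.01), with authors' intervals that included 0 in all 3 TBI libraries. Nts, neurotensin, was at 0.947, 1.88 and 4.67 FPKM in TBI and 0, 0.121 and 0.176 FPKM in Sham (log2 difference 2.14; not called without any Sham library, with adjusted p up to 0.0717) and was highest in TBI 3.

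Markers of brain regions did not move alike. Of 20 cortical layer genes 9 fell and 1 rose (median -0.40; 6 without Sham 1 and 6 without Sham 2 were called). Rorb, a factor of cortical layer 4, was at 4.03, 5.11 and 5.48 FPKM in TBI and 15.4, 13.9 and 12.6 FPKM in Sham (log2 difference -1.43, SE 0.15, adjusted p = 0.00275). Tbr1, a factor of deep-layer neurons, was at 20.5, 27.4 and 21.9 FPKM in TBI and 63.8, 50.6 and 56.8 FPKM in Sham (log2 difference -1.28). Lamp5, a marker of upper layers and some interneurons, was at 32.4, 37.9 and 56.6 FPKM in TBI and 200.03, 209 and 183 FPKM in Sham (log2 difference -2.25, SE 0.19, adjusted p = 0.00213). Of 15 hippocampal genes 7 rose and none fell (median 0.91). C1ql2, a synaptic protein of the dentate gyrus, was at 17.1, 12.5 and 10.02 FPKM in TBI and 1.37, 0.871 and 1.56 FPKM in Sham (log2 difference 2.94, SE 0.24, adjusted p = 0.00213). Spink8, a marker of pyramidal cells, was at 7.09, 5.86 and 3.57 FPKM in TBI and 0.151, 0.352 and 0.569 FPKM in Sham (log2 difference 2.79, SE 0.29, adjusted p = 0.00283). All TBI libraries lay above all Sham libraries in both. The 3 defining hippocampal markers summed to 72.1, 117 and 38.5 FPKM in TBI and 35.3, 50.3 and 38.1 FPKM in Sham, and the 4 cortical markers to 80.0, 85.2 and 86.8 FPKM in TBI and 296, 302 and 265 FPKM in Sham. A different share of each region in the tissue taken and a different level per cell cannot be told apart.

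Thalamic genes separated TBI 3 from the rest. Of 16 tested thalamic genes 2 rose, Prkcd and Vav3 (12.5%, against 11.6% of all tested genes called higher; median 0.48, and -0.01 without TBI 3; 8 without TBI 3, 0 without Sham 1, 1 without Sham 2 and 0 without Sham 3 were called, and 5 with array weights). Prkcd, a kinase of thalamic relay neurons, was at 13.7, 12.8 and 48.1 FPKM in TBI and 2.81, 4.08 and 2.86 FPKM in Sham (log2 difference 2.50; not called without Sham 1 or Sham 3, with adjusted p up to 0.0586). None of 13 striatal genes was called (median 0.11, and -0.59 without TBI 3, when 3 were called). The dopamine receptor gene Drd2 was at 0.612, 0.5003 and 17.2 FPKM in TBI and 0.133, 0.193 and 5.02 FPKM in Sham and the adenosine receptor gene Adora2a at 2.16, 1.28 and 34.98 FPKM in TBI and 1.68, 1.92 and 14.7 FPKM in Sham, with TBI 3 and Sham 3 high in both. The spread of these genes was among the largest in TBI, with Ttr and with Ece1, the endothelin-converting enzyme gene, at 19.7, 292 and 786 FPKM in TBI and 224, 765 and 631 FPKM in Sham.

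None of 51 nuclear genes of the respiratory chain was called (median -0.04), and their summed level was 9131, 9881 and 10912 FPKM in TBI and 9767, 10357 and 10842 FPKM in Sham; 2 were called after quantile normalization and 2 with array weights. Cox8a, a subunit of cytochrome oxidase, was at 949, 1059.7 and 1107 FPKM in TBI and 1168, 1373 and 1298 FPKM in Sham (log2 difference -0.30, 95% interval -0.65 to 0.05, adjusted p = 0.196). Of 23 glycolysis genes 4 rose and 2 fell, so that 26.1% were called against 20.7% of all tested genes (median 0.01; 2 without Sham 1, 2 without Sham 2 and 3 without Sham 3 were called, and 3 after quantile normalization). Hk2, a hexokinase of activated cells, was at 7.65, 3.85 and 2.54 FPKM in TBI and 0.687, 0.652 and 0.729 FPKM in Sham (log2 difference 2.001, SE 0.34, adjusted p = 0.00948). Slc16a1, a lactate carrier, was at 32.1, 22.3 and 22.7 FPKM in TBI and 13.2, 13.1 and 11.7 FPKM in Sham (log2 difference 0.97). Gapdh was at 439, 573 and 521 FPKM in TBI and 501, 549 and 589 FPKM in Sham (log2 difference -0.10, 95% interval -0.43 to 0.23, adjusted p = 0.649). Of 20 genes often used as a reference 3 rose and 1 fell (median -0.07; 7 without TBI 3, 1 without Sham 1, 1 without Sham 2 and 1 without Sham 3 were called, and 7 in the fit of all 3 groups or with array weights). The share of these genes called was 20.0%, near the 20.7% of all tested genes.

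The largest called decrease of all was in Tcap, which encodes telethonin of the muscle sarcomere, at 1.304, 2.805 and 4.56 FPKM in TBI and 16.3, 20.5 and 23.4 FPKM in Sham (chr11:98383811-98384953, log2 difference -2.71, SE 0.35, adjusted p = 0.00441). Its list did not move as a whole: 3 of 13 tested sarcomere genes fell and none rose (median -0.07; 1 without Sham 2 and 1 without Sham 3 were called). Other low-expressed genes with large decreases were Krt12, a keratin, at 1.95, 1.895 and 3.84 FPKM in TBI and 8.61, 12.8 and 11.2 FPKM in Sham (log2 difference -1.93). Neu2, a sialidase, was at 1.203, 0.875 and 2.24 FPKM in TBI and 5.73, 6.02 and 7.25 FPKM in Sham (log2 difference -1.87). Frzb, a secreted inhibitor of Wnt signals, was at 3.12, 4.73 and 4.28 FPKM in TBI and 16.4, 15.8 and 15.1 FPKM in Sham (log2 difference -1.86, SE 0.16, adjusted p = 0.00213). Rgs4, which shortens G protein signals in cortical neurons, was at 47.5, 56.5 and 108 FPKM in TBI and 261, 252 and 232 FPKM in Sham (log2 difference -1.90). Trbc2, a segment of the T cell receptor, was lower in TBI, at 1.99, 1.88 and 8.602 FPKM in TBI and 16.4, 9.85 and 18.8 FPKM in Sham (log2 difference -1.99; not called without TBI 1, TBI 2 or any Sham library, with adjusted p up to 0.124), while the T cell markers given above were near 0 in both groups.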

How the data were processed

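Per the labels, RNA was isolated with Trizol, and sequencing libraries were prepared by an Illumina stranded total RNA kit. The submitters' processing notes name HISAT2 2.1.0 and Cufflinks 2.2.1. The deposited table holds FPKM per gene and library with the authors' interval around each value, and the authors scaled it to transcript length and library size. The sources used here give no depth, genome build or annotation. Of 22482 identifiers, 22452 were found in GENCODE M21, which gave positions, and 26 symbols turned into dates were restored. A failed status was given for 11 genes in 1 or more of the 6 libraries.

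Values were fitted as log2(FPKM + 0.5) with limma 3.58.1 under R 4.3.3, with 1 mean for each of 2 groups, 4 residual degrees of freedom, a mean trend and two-sided tests. The fit was tested on simulated data. Each of 17 alternatives changed 1 choice: the pseudocount, the filter, the scaling, the fit or the libraries. The members and the 61 gene lists were chosen with earlier results of these data known. Genes were picked by rule, and the text names part of them. No rule is given for which of the picked genes appear in the text. In each direction these were the largest differences, the smallest p and the largest FPKM differences. Of genes at 0 in all Sham libraries, those with the highest TBI means were taken. Also picked were the 4 members of each list with the smallest p, the 6 with the largest spread in TBI, and 12 taken always. Of these 12, Aif1 is not described, and many lists are shown with fewer than 4 members. Further genes were added after values were seen.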

Additional observations from a re-analysis of the deposited data

How the results depend on the processing

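Without 1 library at a time, the count of called genes ranged from 948 to 3689, that of genes called higher from 553 to 1975, that of genes called lower from 393 to 1714, and that of genes called with at least a 2-fold difference from 573 to 1338. Array weights, which gave TBI 1 and TBI 3 little weight, called 4357 genes, 2034 of them lower. Of the calls, 55.8% were higher in TBI, against 63.1% with equal FPKM totals and 48.3% after quantile normalization. The replicate block called 2471 genes. Deviations of libraries with the same number correlated at -0.00, -0.01 and 0.23. TBI 1 and TBI 2 correlated best with Sham libraries of other numbers, and TBI 3 correlated best with Sham 3. Whether libraries of the same number share more than the number was not tested. The other counts of called genes lay between 2474 and 3826. The cause of these differences was not tested.

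No called gene changed direction. Among genes not called, the difference turned under array weights to -0.31 for Ttr, -0.13 for Drd2, -0.90 for Adora2a and 0.0086 for Gapdh, and after quantile normalization to -0.17 for Mmp9 and -0.087 for Lck. Without 1 library at a time it ranged from -0.043 (without Sham 3) to 0.33 for Mmp9, from -2.26 to 0.97 (without TBI 2) for Tpm3-rs7, from -2.63 to 0.0074 (without TBI 1) for Ece1, from -0.35 (without TBI 3) to 2.03 for Drd2, from -0.98 (without TBI 3) to 1.27 for Adora2a, from -0.49 (without TBI 3) to 1.60 for Syndig1l, and from -0.19 to 0.0035 (without TBI 1) for Gapdh. For Adora2a it was also below 0 without Sham 1 (-0.13) or Sham 2 (-0.057). The cause was not tested. No read counts are given, so the precision of low values is unknown, and the 8509 genes under the minimum were not tested.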
